A study of Mus musculus with 5 samples.

Results

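Immediate early genes are transcribed within minutes of a stimulus, without new protein synthesis, and 10 of them were followed here in sorted cells of the newborn mouse retina: the AP-1 subunits Fos, Fosb, Fosl2, Jun, Junb and Jund, the zinc finger factor Egr1, the early response genes Ier2 and Ier3, and the phosphatase Dusp1. They were taken by symbol, and all 10 were found among the 24594 genes of the deposited table. Messenger RNA was sequenced in 3 libraries labelled Zfp292-OE and 2 control libraries. For the first, a plasmid with Zfp292, which encodes a large nuclear zinc finger protein, behind the CAG promoter was electroporated into the eyes of mouse pups at P0, and the controls received CAG-GFP. CAG drives expression in most cell types, and which cells took up the plasmid was not measured here. In both groups retinas were dissociated 4 days later and sorted for GFP. The labels name the sorted cells RPC (retinal progenitor cells). Neither the strain nor the number of animals or litters behind each library is in the labels, so the p-values below cover the spread of these 5 libraries, which may be technical.

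Fos proteins dimerise with Jun proteins through a leucine zipper to form AP-1, which binds DNA and activates or represses its targets. Fos, Jun and Egr1 are switched on by growth factors, depolarisation and stress, through MAP kinases acting on the serum response factor, its ternary complex partners and CREB. Dusp1 closes the loop by removing phosphate from MAP kinases. The same genes are known to respond to enzymatic dissociation and sorting of tissue, steps that all 5 libraries share.

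The promoters of the central members are shown because the members are known for rapid induction through sites near the start of the gene. RefSeq sequence of GRCm38.p6, the build of the files, was used for 8 of the 10 genes, and Egr1 and Ier2 were left without a window. The 250 bases before the annotated start of Fos, Jun, Ier3 and Dusp1 follow. Capitals mark the letters TGACG (the half-site bound by CREB and ATF factors), TGACGTCA (the full cAMP response element, which contains the half-site on both strands), TGANTCA (the AP-1 site), TATAAA (the TATA box) or the CArG box of the serum response factor, searched on both strands.
Fos, chr12:85473640-85473889, plus strand: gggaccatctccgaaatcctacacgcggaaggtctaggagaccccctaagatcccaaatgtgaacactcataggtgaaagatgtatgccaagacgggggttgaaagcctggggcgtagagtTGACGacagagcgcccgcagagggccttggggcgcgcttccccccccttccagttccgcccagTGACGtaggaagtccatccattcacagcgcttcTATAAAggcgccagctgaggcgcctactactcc
Jun, chr4:95052223-95052472, minus strand: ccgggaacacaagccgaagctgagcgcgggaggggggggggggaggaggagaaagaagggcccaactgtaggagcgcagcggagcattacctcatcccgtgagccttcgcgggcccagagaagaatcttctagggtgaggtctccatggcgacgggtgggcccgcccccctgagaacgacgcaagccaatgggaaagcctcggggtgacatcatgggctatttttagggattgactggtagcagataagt
Ier3, chr17:35821463-35821712, plus strand: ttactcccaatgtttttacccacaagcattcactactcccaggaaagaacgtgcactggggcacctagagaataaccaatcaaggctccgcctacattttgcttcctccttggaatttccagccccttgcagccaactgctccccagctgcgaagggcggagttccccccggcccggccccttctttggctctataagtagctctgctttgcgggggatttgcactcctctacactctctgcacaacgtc
Dusp1, chr17:26508473-26508722, minus strand: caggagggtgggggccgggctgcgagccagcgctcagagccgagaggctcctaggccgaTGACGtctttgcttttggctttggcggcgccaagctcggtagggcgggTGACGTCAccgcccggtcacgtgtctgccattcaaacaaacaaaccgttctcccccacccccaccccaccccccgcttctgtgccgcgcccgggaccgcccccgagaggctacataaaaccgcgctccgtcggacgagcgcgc
The Fos window held TGACG at 129 to 125 and at 66 to 62 bases before the start and TATAAA at 33 to 28. The Dusp1 window held TGACG at 191 to 187 and the full element TGACGTCA at 143 to 136. The windows of Jun and Ier3 held none of these letters. Only exact matches were sought, so tgacatca in the Jun window, which differs from the full element by 1 letter, was not counted. Of the 8 windows, 4 (Dusp1, Fos, Fosb and Junb) held TGACG, against 17.9% of 32536 distinct windows of that length in the table. The full element was in 1 of the 8, against 1.56% of all windows, and TATAAA in 1 of the 8, against 12.3%. Neither TGANTCA (6.73% of all windows) nor a CArG box (1.48%) was found in the 8. Bases more than 250 before the start, and the promoters of Egr1 and Ier2, were not searched, so sites there would be missed. These matches describe letters only and do not show that a factor binds.

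Egr1 and Ier3 were lower in the libraries labelled Zfp292-OE, and the other 8 genes did not pass the test. Values are normalised read counts, that is reads divided by 1 factor per library. Differences are log2 fold changes on log2(value + 1), Zfp292-OE minus control, tested with limma with Benjamini-Hochberg adjustment over 16316 genes and a threshold of 0.05. By this test 0 of the 10 genes rose and 2 fell. Of all tested genes 7.38% fell and 17.4% changed in either direction. edgeR on the recovered reads called 2 of the 10 lower, against 7.78% of all genes it tested, and DESeq2 called 5 lower, against 11.5%. The median log2 fold change was -0.67 over the 10 genes and -0.06 over all tested genes. The groups did not overlap for 6 of the 10, each lower in Zfp292-OE (Fos, Fosl2, Jun, Jund, Egr1 and Ier3), against 25.7% of all tested genes. The number that fell in limma was 3 with TMM scaling (7.70% of all tested genes) and 5 with all libraries scaled to equal totals (12.2%), which moved the median of all tested genes to -0.27. No gene of the 10 rose under these scalings.

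**Figure D1:**
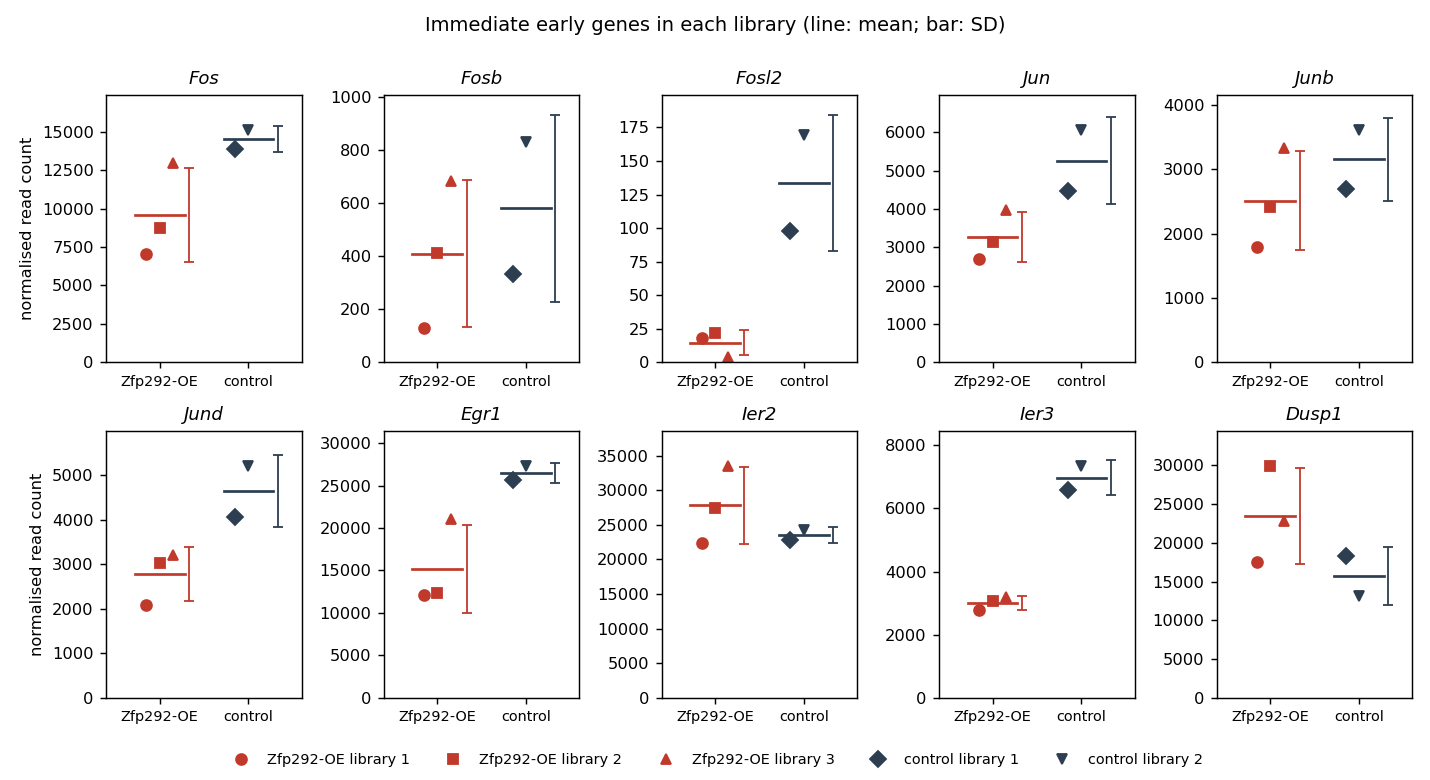
Normalised read counts (y axes, linear from 0) of the 10 genes in the 3 Zfp292-OE libraries and 2 control libraries, with the mean as a line and the SD as a bar. The groups do not overlap for 6 genes, among them Ier3, at 2768 to 3187 in Zfp292-OE and 6578 to 7357 in control.

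Ier3, a stress-inducible regulator of cell survival (chromosome 17, 35821713 to 35822911), had the largest separation of the 10 relative to its spread. It had 2768, 3063 and 3187 normalised reads in Zfp292-OE libraries 1, 2 and 3, against 6578 and 7357 in control libraries 1 and 2. All 3 Zfp292-OE libraries lay close together and below both controls. The means were 3006 ± 215 (SD, n = 3) in Zfp292-OE and 6968 ± 551 (SD, n = 2) in control, a ratio of 0.431. On the log2 scale Ier3 fell by 1.21 (SE 0.17), and the adjusted p was 0.0018 in limma, 0.0027 in edgeR and 1.2e-10 in DESeq2. Without control library 1 its adjusted p was 0.055 and without control library 2 it was 0.11, at log2 fold changes of -1.29 and -1.13. It passed without any one of the Zfp292-OE libraries.

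Egr1, the zinc finger factor also known as Zif268 or Krox24 (chromosome 18, 34861207 to 34864956), had 12113, 12310.3 and 21090.2 normalised reads in Zfp292-OE libraries 1, 2 and 3, against 25645 and 27351 in the controls. Library 3 stood well above libraries 1 and 2 and nearest to the controls, without reaching them. The means were 15171 ± 5127 (SD, n = 3) in Zfp292-OE and 26498 ± 1206 (SD, n = 2) in control. Egr1 fell by 0.85 on the log2 scale (SE 0.23, adjusted p = 0.031 in limma and 0.048 in edgeR). The call was lost without Zfp292-OE library 1 (adjusted p = 0.095), without library 2 (0.073), without control library 1 (0.20) or without control library 2 (0.29). Without Zfp292-OE library 3 its log2 fold change was -1.12, with an adjusted p of 0.0020 in limma.

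Fos, the founding member of its family (chromosome 12, 85473890 to 85477274), had 7062, 8752 and 12963 normalised reads in Zfp292-OE libraries 1, 2 and 3, against 13900 and 15096 in the controls. Library 3 was highest in its group and just below control library 1, so the groups did not overlap. The means were 9592 ± 3039 (SD, n = 3) in Zfp292-OE and 14498 ± 846 (SD, n = 2) in control. With a log2 fold change of -0.64 (95% interval -1.15 to -0.13), Fos did not pass in limma (adjusted p = 0.082). It passed without Zfp292-OE library 3, at -0.88 with an adjusted p of 0.014. With equal totals its adjusted p was 0.037.

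Fosb, a close relative of Fos (chromosome 7, 19302696 to 19310118), varied most within groups. It had 129, 414 and 682 normalised reads in Zfp292-OE libraries 1, 2 and 3, against 331 and 828 in the controls. The groups overlapped, and each spanned more than the distance between their means of 408 ± 277 in Zfp292-OE (SD, n = 3) and 579.6 ± 351 in control (SD, n = 2). Fosb had a log2 fold change of -0.66 with a 95% interval of -2.18 to 0.86, and its sign turned without Zfp292-OE library 1 (0.02) and without control library 2 (0.0013).

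Fosl2, which encodes Fra-2 (chromosome 5, 32136472 to 32157840), was scarce. It had 18.3, 21.6 and 4.19 normalised reads in Zfp292-OE libraries 1, 2 and 3, against 98.1 and 169 in the controls. All 3 Zfp292-OE libraries were below both controls, from 16, 23 and 4 whole reads in Zfp292-OE against 90 and 220 in control. Its log2 fold change of -3.31 had a 95% interval of -5.74 to -0.87, and the adjusted p was 0.064 in limma and 0.020 in DESeq2.

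The Jun family had its lowest value in Zfp292-OE library 1 for each of its 3 members. Jun (chromosome 4, 95049036 to 95052222), the main partner of Fos, had 2683, 3148 and 3976 normalised reads in Zfp292-OE libraries 1, 2 and 3, against 4456 and 6054 in the controls. The groups did not overlap. The means were 3269 ± 655 (SD, n = 3) in Zfp292-OE and 5255 ± 1130 (SD, n = 2) in control, with a log2 fold change of -0.69 (95% interval -1.19 to -0.19) and an adjusted p of 0.061 in limma. It passed without Zfp292-OE library 3, at -0.84 (adjusted p = 0.042), and in DESeq2 (adjusted p = 0.024).

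Jund, the subunit known for steady expression in resting cells (chromosome 8, 70697739 to 70700616), had 2082, 3038 and 3219 normalised reads in Zfp292-OE libraries 1, 2 and 3, against 4065 and 5217 in the controls. The groups did not overlap. Jund had a log2 fold change of -0.75 (95% interval -1.28 to -0.23), just outside the threshold in limma with an adjusted p of 0.053 and inside it in DESeq2 with 0.018. Over the 14 alternatives run, Jund was called in 6, Jun in 4 and Fos in 3.

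Junb, which can oppose the action of Jun (chromosome 8, 84976909 to 84978748), had 1792, 2409.8 and 3327 normalised reads in Zfp292-OE libraries 1, 2 and 3, against 2694 and 3603 in the controls. Library 3 lay between the controls, so the groups overlapped. Its log2 fold change was -0.36 (95% interval -0.97 to 0.26), with an adjusted p of 0.40 in limma.

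Ier2 and Dusp1 had higher means in Zfp292-OE, and neither passed the test. Ier2, a nuclear protein induced by growth factors (chromosome 8, 84661331 to 84662852), had 22419.6, 27504 and 33569.5 normalised reads in Zfp292-OE libraries 1, 2 and 3, against 22764 and 24316 in the controls. Library 1 lay just below the controls and libraries 2 and 3 above them. The log2 fold change was 0.22 (95% interval -0.17 to 0.61), with an adjusted p of 0.41 in limma.

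Dusp1, the MAP kinase phosphatase MKP-1 (chromosome 17, 26505591 to 26508472), had 17526, 29953 and 22859.6 normalised reads in Zfp292-OE libraries 1, 2 and 3, against 18344 and 13112 in the controls. Library 1 was below control library 1, and libraries 2 and 3 were above both controls. The means were 23446 ± 6234 (SD, n = 3) in Zfp292-OE and 15728 ± 3700.2 (SD, n = 2) in control. Dusp1 had a log2 fold change of 0.56 (95% interval 0.05 to 1.07), with an adjusted p of 0.12 in limma, and it was called in 0 of the 14 alternatives, edgeR (0.16) and DESeq2 (0.065) among them. Whether Dusp1 and Ier2 differ from the other 8 genes in their response was not tested.

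**Figure D2:**
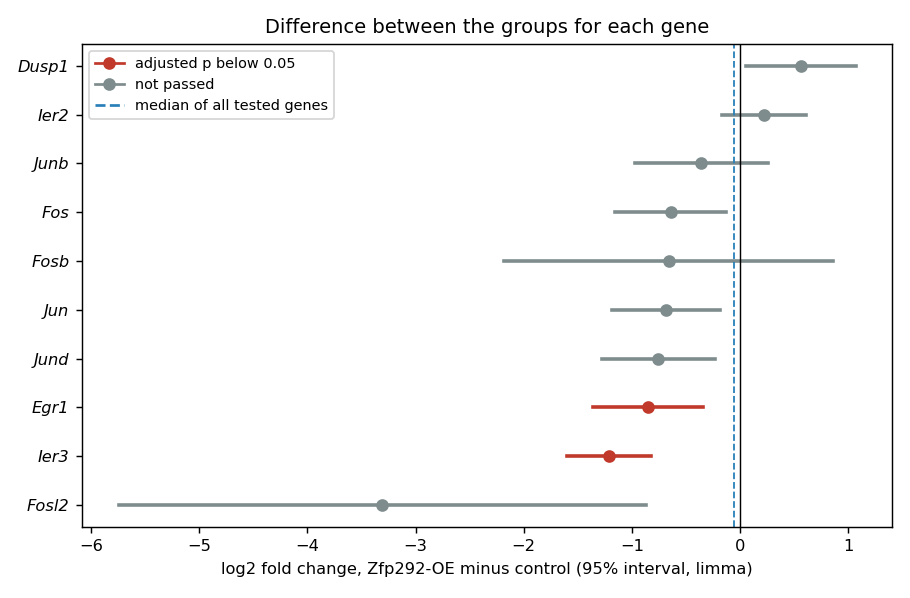
Log2 fold change of each gene, Zfp292-OE minus control (x axis), with its 95% interval from limma. Egr1 (-0.85) and Ier3 (-1.21) passed the threshold, Ier2 and Dusp1 lay above 0, and Fosb and Fosl2 had the widest intervals.

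The 3 Zfp292-OE libraries differed among themselves. Of the 10 genes, 9 had their lowest Zfp292-OE value in library 1, Fosl2 being the exception. In library 3 there were 8 with their highest Zfp292-OE value, and in library 2 there were 2 (Fosl2 and Dusp1). On the log2 scale relative to the control mean, the median over the 10 genes was -1.08 in Zfp292-OE library 1, -0.66 in library 2 and -0.24 in library 3, and -0.13 and 0.13 in control libraries 1 and 2. Ier3 did not share this spread, at -1.33, -1.18 and -1.13 in Zfp292-OE libraries 1, 2 and 3. Egr1 did, at -1.13, -1.11 and -0.33.

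**Figure D3:**
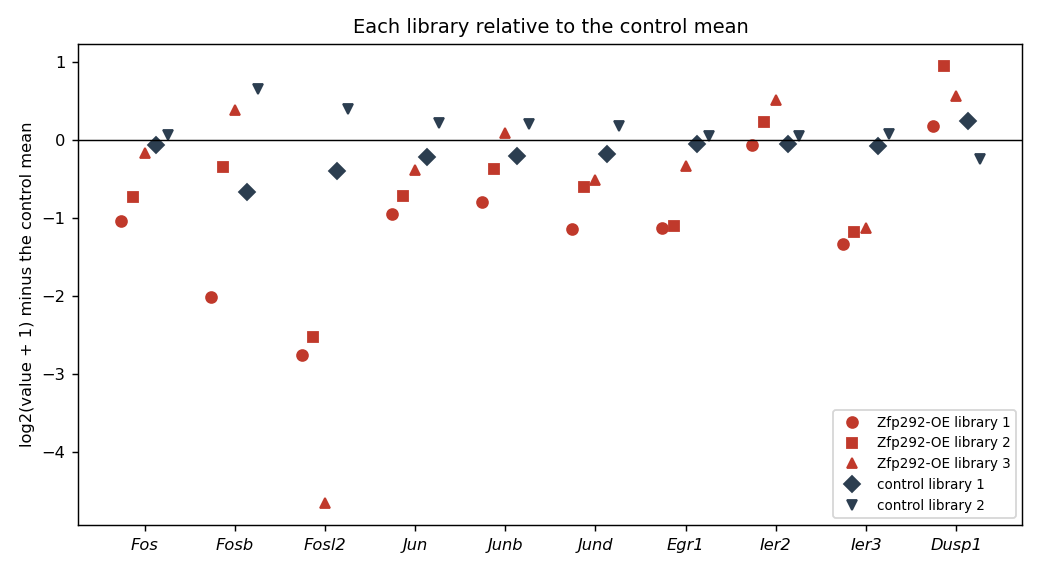
Deviation of each library from the control mean on log2(value + 1) (y axis) for the 10 genes (x axis). Zfp292-OE library 3 lies nearest to the controls for Fos (-0.16) and Egr1 (-0.33), while the 3 libraries of Ier3 lie together, at -1.33 to -1.13.

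**Figure D4:**
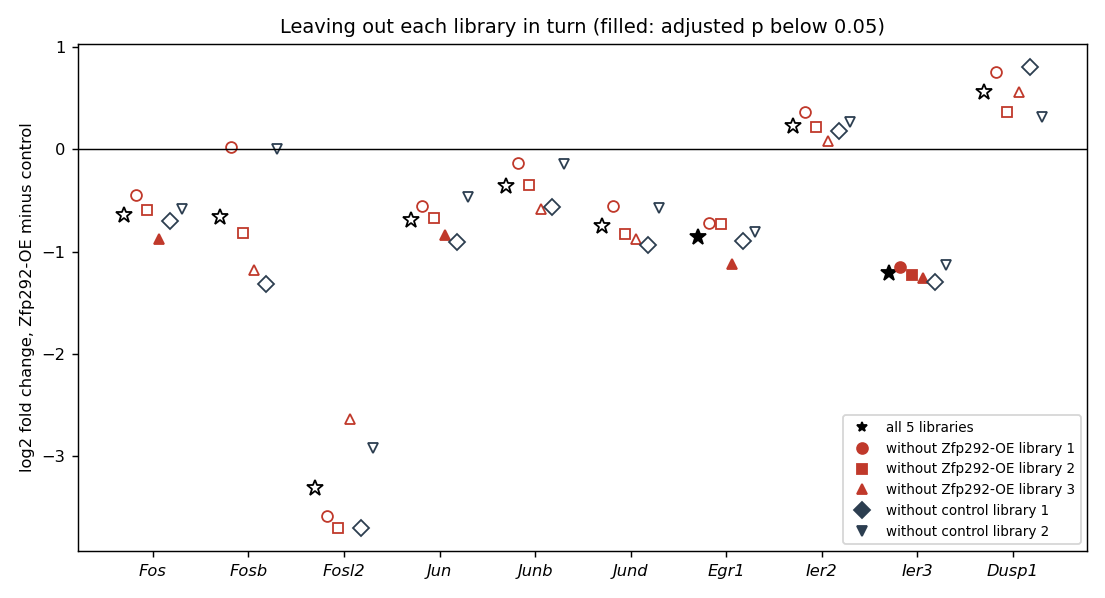
Log2 fold change of each gene (y axis) with all 5 libraries and with each library left out, filled where the adjusted p in limma was below 0.05. No gene is filled where a control library is left out, and Ier3 is filled without any one Zfp292-OE library.

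Per kilobase of merged exon, from the GENCODE M21 annotation of GRCm38, Ier2 had the highest level in both groups and Fosl2 the lowest. In Zfp292-OE the levels per kilobase were 18286 ± 3668 for Ier2, 7081 ± 1883 for Dusp1, 4078 ± 1292 for Fos, 3383 ± 1143 for Egr1 and 2658 ± 191 for Ier3 (SD, n = 3). There the ranges of Dusp1 and Fos, of Fos and Egr1, and of Egr1 and Ier3 overlapped, as did those of Jund and Junb and of Junb and Jun. In control they were 15466 ± 721 for Ier2, 6164 ± 360 for Fos, 6161 ± 487 for Ier3, 5910 ± 269 for Egr1 and 4750.2 ± 1118 for Dusp1 (SD, n = 2), and the ranges of Fos and Ier3, of Ier3 and Egr1 and of Jun and Junb overlapped. The lower members were Jund (1666 in Zfp292-OE and 2782 in control), Junb (1091 in Zfp292-OE and 1368 in control), Jun (1025 in Zfp292-OE and 1648 in control), Fosb (65.4 in Zfp292-OE and 92.8 in control) and Fosl2 (1.52 in Zfp292-OE and 13.8 in control). The gene positions given above are from RefSeq and differ from the GENCODE exons. Junb (2301 merged exon bases) and Dusp1 (3311) are longer in GENCODE than the span of those positions, and Jund (1668) is shorter. The gene models used for counting are not known here, so the order of members close in level, Jund, Junb and Jun among them, depends on the annotation.

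Some of these genes share exon sequence with neighbours on the other strand, and whether counting used strand is not given in the sources used here. Junb shares 173 of its 2301 merged exon bases with Prdx2, a peroxiredoxin that had 256140 to 268222 normalised reads in Zfp292-OE and 209260 to 219649 in control. Jund shares 877 of 1668 with Gm11175, Jun 232 of 3189 with Junos, and Dusp1 11 of 3311 with Ergic1. Ergic1 had 13607 to 14740 normalised reads in Zfp292-OE and 6341 to 7517 in control. Its log2 fold change was 1.02 (adjusted p = 0.0021 in limma), the same direction as that of Dusp1. Gm11175 and Junos were not found by symbol among the genes measured, so their own levels are not known here. Without strand, reads of such pairs cannot be told apart, so the values of Junb, Jund and Jun are uncertain to that extent. The shared bases are those of the GENCODE exons, and whether the models used for counting share them is not known here. Dusp1 also overlaps AC122252.4 and AC122252.1 on its own strand. The exon bases it shares with them were not counted, so its value is uncertain as well.

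Genes whose values followed Fos most closely over the 5 libraries were BC037704, Serinc5, Mamdc4, Ano8 and Plekhh3. Their root mean square difference from Fos in library-centred log2 values was 0.041, 0.044, 0.046, 0.081 and 0.082. Among 14297 genes with a mean of at least 50, Egr1 ranked 66, Jun 76, Junb 143 and Jund 166 by this measure. The other members followed Fos less closely, with Ier3 at rank 2399, Ier2 at 4323, Fosb at 9511, Dusp1 at 10238 and Fosl2 at 13701. With 5 libraries the ranking is a description.

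Related genes, in lists by role, were called in both directions and at a share near that of all genes. Of the 100 tested genes in 7 further lists, 9 rose and 6 fell in limma, against 17.4% of all tested genes that changed. With equal totals 4 rose and 16 fell, against 17.8% of all tested genes, and in DESeq2 10 rose and 13 fell, against 26.0%. All calls in these lists were lost in each of the fits that left out a control library, where limma called 1 gene in all.

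Of 9 tested partners of AP-1 dimers, 1 rose, 0 fell and 8 did not pass, with a median log2 fold change of -0.09. Batf3, a partner of Jun proteins in immune cells, had 388, 511 and 412 normalised reads in Zfp292-OE libraries 1, 2 and 3, against 14.2 and 108 in the controls. Its log2 fold change was 3.42 (adjusted p = 0.017 in limma), but 2.0 without control library 1 and 4.84 without control library 2, and its adjusted p was 0.0502 without Zfp292-OE library 1. Fosl1 was listed at 0 in all 5 libraries, where 3 reads, the limit a count of 0 allows, would be worth 2.31 to 3.42. Of 4 tested Egr factors and Nab co-repressors 0 rose and 0 fell in limma or edgeR, and 0 had an unadjusted p below 0.05, against 32.8% of all tested genes. Egr3 had a log2 fold change of -1.10 (95% interval -2.68 to 0.48) and the Egr co-repressor Nab1 0.29 (-0.24 to 0.83).

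Among 30 tested further immediate early genes 3 rose and 3 fell, the other 24 did not pass, and the median was -0.31. Klf6, a Krüppel-like factor, had 7281, 7393 and 8283 normalised reads in Zfp292-OE libraries 1, 2 and 3, against 3932 and 3888 in the controls, a log2 fold change of 0.97 with an adjusted p of 0.0036. Klf10 rose as well (0.66, adjusted p = 0.029, but 0.12 with equal totals). Btg2, an antiproliferative gene of neurogenic progenitors, had 12225, 11587 and 17887 normalised reads in Zfp292-OE libraries 1, 2 and 3, against 25333 and 22283 in the controls. It fell by 0.80 on the log2 scale (adjusted p = 0.022), with library 3 highest among the Zfp292-OE libraries, as for Egr1. The pseudokinase gene Trib1 fell by 0.82 (adjusted p = 0.034), and its value was -0.42 without control library 2. Among the fits without 1 Zfp292-OE library, Btg2 lost its call without library 1 or 2 (adjusted p = 0.072 and 0.059), Klf10 without library 2 or 3 (0.083 and 0.077) and Trib1 without any of them (0.0599 to 0.073).

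Upstream, of 13 tested factors of the SRF, TCF and CREB groups, 2 rose, 1 fell and 10 did not pass, with a median of -0.34. The CREB family genes Crem (0.72, adjusted p = 0.014) and Atf1 (0.80, adjusted p = 0.018) rose, and the MADS-box factor Mef2d fell by 0.97 (adjusted p = 0.0085). With equal totals Crem and Atf1 missed the threshold (adjusted p = 0.053 and 0.059), and Atf1 also did without Zfp292-OE library 1 (0.062) or 2 (0.051). Of 16 MAP kinases and activators 0 rose and 0 fell in limma or edgeR, 4 had an unadjusted p below 0.05, a share under the 32.8% of all tested genes, and the median was -0.23. The kinase genes Mapk8, which encodes JNK1, and Rps6ka1, which encodes the kinase RSK1, had log2 fold changes of -0.51 (adjusted p = 0.068) and -1.15 (adjusted p = 0.089). DESeq2 called Mapk8 (adjusted p = 0.015) and Mapk10, which encodes JNK3 (0.037), lower, and limma with equal totals called Mapk8 lower (0.019).

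The other MAP kinase feedback inhibitors split. Among 16 tested Dusp, Spry and Spred genes 2 rose and 2 fell, the other 12 did not pass, and the median was 0.04. Dusp6, the cytoplasmic phosphatase of ERK, had 7439, 9543 and 10088 normalised reads in Zfp292-OE libraries 1, 2 and 3, against 5132 and 4880.3 in the controls, and rose by 0.84 on the log2 scale (adjusted p = 0.012). Dusp14 was close to the threshold (0.65, adjusted p = 0.0495). It missed it with TMM scaling (0.059), with equal totals (0.13) and without any one Zfp292-OE library (0.051 to 0.13), and its value was 0.37 without control library 2. Dusp8, a phosphatase of JNK and p38, fell by 1.29 (adjusted p = 0.0040), and Dusp7, a phosphatase of ERK, fell by 1.16 (adjusted p = 0.016). Of 12 heat shock genes, a second group known to respond to handling of tissue, 1 rose, 0 fell and 11 did not pass, with a median of 0.03. The one that rose was the mitochondrial chaperonin Hspd1 (0.64, adjusted p = 0.011). Hspa1a and Hspa1b are near-identical copies and their values are uncertain.

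**Figure D5:**
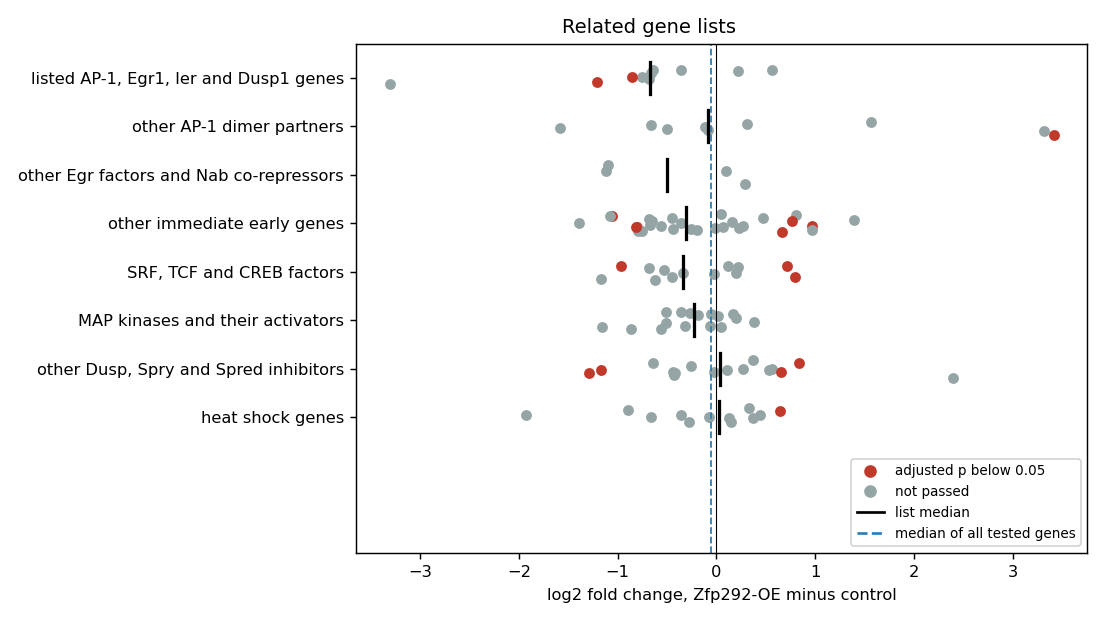
Log2 fold change, Zfp292-OE minus control (x axis), of each tested gene in the 10 listed genes and the 7 related lists, with list medians as black bars. The median of the 10 genes was -0.67, and the medians of the other lists lay between -0.50 and 0.04.

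Levels of cell type markers moved with the same groups. In these bulk samples fewer cells of a type and less RNA per cell cannot be told apart. Summed rod markers (8 of 8 fell) had 153618 to 164435 normalised reads in Zfp292-OE and 569244 to 702942 in control, and bipolar markers (6 of 6 fell) had 2642 to 4010.4 in Zfp292-OE and 21501 to 24870.5 in control. Müller glia markers (4 of 6 fell, 1 rose) summed to 249105 to 328443 in Zfp292-OE and 554294 to 684089 in control. G2/M genes (8 of 8 rose) summed to 147241 to 290821 in Zfp292-OE and 32087 to 38075 in control, and progenitor genes (3 of 10 rose, 1 fell) to 291567 to 331130 in Zfp292-OE and 212643 to 242541 in control. Progenitor genes, which fit the label RPC, were thus present in every library, beside rod genes.

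Markers of glia, vessels and microglia varied as well. Microglial markers (1 of 12 fell) summed to 399.7 to 5485 in Zfp292-OE and 3559 to 13958 in control. All 12 had a negative log2 fold change, with a median of -2.19. The 1 called was Fcrls (adjusted p = 0.030 in limma and 0.18 in DESeq2). Csf1r and Ptprc were at 0 in Zfp292-OE library 3 and Fcrls at 0 in libraries 2 and 3. Library 3 had the highest Egr1 and Fos of its group and the lowest microglial sum. Its G2/M sum was also the lowest (147241, against 240165 in library 1 and 290821 in library 2), as was its rod sum (153618). The Müller glia (328443), pericyte (901) and astrocyte (2416) sums were the highest of the group in the same library, but their markers were split. Apoe, Rlbp1, Glul, Pdgfrb, Notch3, Gfap, Aldh1l1 and Pax2 were highest in library 3. Slc1a3, Clu, Aqp4, S100b, Kcnj8, Abcc9 and Acta2 were highest in library 1, and Rgs5, Cspg4 and Pdgfra in library 2. Pdgfra made up most of the astrocyte sum (2085 in library 3), and Kcnj8, Abcc9 and Acta2 were at 0 in library 3. Pericyte markers (4 of 7 tested fell) summed to 670.1 to 901 in Zfp292-OE and 1669 to 3309 in control, with Des at 0 in all 3 Zfp292-OE libraries. Most of the Zfp292-OE sum was Notch3 (437 to 513 in Zfp292-OE and 345 to 497 in control), while Rgs5 had 0 to 16.0 in Zfp292-OE and 461 to 1233 in control. Astrocyte markers (2 of 4 tested fell) summed to 2078 to 2416 in Zfp292-OE and 3457 to 7387 in control, with Pax2 at 0 in Zfp292-OE libraries 1 and 2. Endothelial markers (2 of 7 tested rose) summed to 39475 to 48113.5 in Zfp292-OE and 42827 to 51667 in control, with Cdh5 at 0 in 4 of the 5 libraries and Tek at 0 in both controls. Kdr alone gave 31624 to 41822 of the endothelial sum in Zfp292-OE and 39920.3 to 48368 in control. The part of these cell types in the values of the 10 genes was not tested.

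Reads assigned to genes numbered 114197740 to 135442444 in the Zfp292-OE libraries and 103096224 to 137683716 in the controls. Zfp292 itself averaged 14454 ± 1179 (SD, n = 3) in Zfp292-OE libraries and 14022 ± 1038 (SD, n = 2) in control, a log2 fold change of 0.04 (adjusted p = 0.87 in limma). Each direction given above is therefore that of the labels.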

How the data were processed

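The deposited table holds a normalised signal per gene. Its values behave as reads divided by 1 factor per library, since 100% of them are whole multiples of the smallest value above 0 within 1e-06 of a read. Per the submitters' processing notes the build is GRCm38, also written mm10. How reads were aligned, counted, annotated and scaled is not given in the sources used here. The table has 0 columns of other samples.

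Genes with a mean of at least 10 entered limma 3.58.1 with a trend, in R 4.3.3, as log2(value + 1), with libraries grouped by their labels. edgeR 4.0.16 and DESeq2 1.42.0 on the recovered whole reads, pseudocounts of 0.5 and 10, other filters, TMM scaling, equal totals, leaving out each library, and a replicate block were alternatives. The scripts were tested on simulated data. The members and lists were chosen with earlier results of these data known, so no test over a list was made. Every member is named, with the 4 called genes of smallest p in each other list, or 2 where none was called, and the 5 genes most like Fos. Intervals of 95% are from limma. The reads carry no molecular identifiers and are not independent molecules, so the floor of 3 reads covers counting error only. Figures were drawn with Python 3.11.15 and matplotlib 3.10.9.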

Additional observations from a re-analysis of the deposited data

How the results depend on the processing

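Over 14 alternatives for each of the 10 genes, 117 of the values kept direction and side of the threshold, 6 lost a call, 15 gained one and 2 reversed. The reversed values are those of Fosb without control library 2 (0.0013) and without Zfp292-OE library 1 (0.0201), and its range on leaving out 1 library was -1.32 to 0.02. The number of the 10 genes called was 2, and it was 4 with a pseudocount of 10, 5 with equal totals and 5 in DESeq2, each one lower in Zfp292-OE. With the pseudocount of 10, limma called 1300 of the 16316 tested genes lower, against 1204 in the main fit. Leaving out 1 library gave 0 to 4 of the 10, 1 to 2352 of all tested genes and 0 to 12 of the 100 related genes, the lowest without a control library, where the lone control is assumed to vary like the other group. Without Zfp292-OE library 1 limma called 1657 genes in all. The related genes called were 15, and 23 in DESeq2. Equal totals gave 912 higher and 1985 lower among all tested genes, against 1632 and 1204. With a replicate block 5 of the 10 were called, each lower, beside 1135 called lower among the 16316 tested genes. In that fit Zfp292-OE library 3 has no partner, so each fold change is that without it. Deviations of same-numbered libraries from their group means correlated at -0.04 and -0.03 over genes. The deviations of the 2 controls mirror each other, so these values cannot show whether the numbers pair the libraries. At this depth only Fosl2 among the 10 had fewer than 100 reads in a Zfp292-OE library. Other causes were not tested.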
